A study of Homo sapiens with 3 samples.

Results

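The TGF-beta family signals through pairs of receptor kinases to SMAD proteins, and the 10 genes described here cover several steps of that route. They are the ligand gene TGFB1, the SMAD genes SMAD3, SMAD4, SMAD6 and SMAD7, the corepressor genes SKI and SKIL, and the inhibitor of DNA binding genes ID1, ID2 and ID3. They were chosen by symbol, and all 10 were found among the 26334 genes of the tables. Genes averaging 50 counts or more over the libraries, 10406 in all, were described by size of difference. Of the 10, 8 reached that level, and SMAD6 and SMAD7 lay below it.

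RNA came from K562 cells, an established cell line from a chronic myelogenous leukaemia. One culture carried the pMYs-IG empty vector, one pMYs-IG_3xHA-EVI1-WT and one pMYs-IG_3xHA-EVI1+18, each stably expressed after retroviral infection. EVI1 is a zinc finger transcription factor encoded by MECOM, and the title of the series ties the EVI1+18 form to aberrant splicing. All cultures were infected with virus from a packaging line derived from HEK293 cells and sorted for GFP 3 days later, so the control shares the vector, the virus and the sort. The labels do not say how many cells or clones founded each culture, nor name an antibiotic or ligand treatment. There was 1 library per construct, so no difference below has a replicate check and no p-value is given. Each ratio compares 2 libraries, not 2 constructs in general.

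In the TGF-beta branch a type II receptor activates a type I receptor, which phosphorylates SMAD2 and SMAD3. The BMP branch uses SMAD1, SMAD5 and SMAD9 instead. Both share SMAD4, which carries the activated SMADs to DNA. SMAD6 and SMAD7 block the receptors and are themselves induced by the pathway, while SKI and SKIL hold SMAD complexes in a repressed state. The ID genes are widely used as readouts of BMP signalling: their proteins lack a basic DNA-binding region and sequester E proteins such as that of TCF3. EVI1 is known to bind SMAD3 and to dampen TGF-beta responses.

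The libraries held 17794423 counts (empty vector), 18439311 (EVI1-WT) and 20772348 (EVI1+18). MECOM, taken as a check of the labels, had 793, 1039 and 2012 counts. It was at 1.30 times the empty vector level with EVI1-WT (1.18 to 1.42) and 2.21 times with EVI1+18 (2.04 to 2.41). Genes higher by at least as much made up 6.20% of those described with EVI1-WT and 0.750% with EVI1+18. The check therefore says little about the EVI1-WT label. The tables do not separate the vector's transcript from the cell's own. Of 9 markers of K562 cells, 9 were at 1 TPM or more in every library, with a summed TPM of 49315 to 65456.5. A list of 5 lymphoid markers summed to 4.21 to 11.96 TPM, with MS4A1 at 0 in all libraries, and PTPRC at 568, 216 and 300 counts (empty vector, EVI1-WT, EVI1+18). PTPRC, a gene of leukocytes in general, supplied most of that sum, at 11.2, 3.96 and 4.77 TPM. A list of 4 monocyte markers summed to 12.2 to 17.6 TPM with CSF1R at 0 throughout. Nearly all of it came from LYZ, which had 162, 185 and 288 counts. Of 8 markers of stromal, epithelial or packaging cells, PAX2 and NEFM were at 0 throughout. That list summed to 119 to 125 TPM, nearly all from EPCAM, and COL1A2 had 93, 2 and 20 counts. The part of PTPRC, LYZ or COL1A2 in the results was not tested.

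Among the 10 genes, ID1 was lower and ID2 higher with both EVI1 forms than with empty vector. ID3 was lowest with EVI1-WT, and SMAD7 was higher with both forms on few counts. TGFB1 was slightly lower with EVI1-WT and higher with EVI1+18. SMAD4 and SKI stayed within 1.1-fold of empty vector. Both EVI1 libraries are compared with the same empty vector library, so a deviation of that library enters both ratios.

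The DNA just upstream of the transcript start is shown for the ID genes, whose levels went in different directions, and for the inhibitory SMAD genes. Of these, SMAD7 was above empty vector on few counts. RefSeq windows on GRCh38.p14 were found by symbol for 9 of the 10 genes; SKI was not among them. Each run is the 250 bases before the start, on the strand of the gene. They are chr20:31605039-31605288 for ID1 (plus strand), chr2:8681806-8682055 for ID2 (plus), chr1:23559502-23559751 for ID3 (minus) and chr15:66701986-66702235 for SMAD6 (plus). SMAD7 has 3 starts in the table, of which chr18:48950966-48951215 (minus) is printed as the one farthest upstream. These coordinates are not those of the build of the expression tables, which was hg19. Capitals mark matches, on either strand, to 5 motifs. They are the SMAD palindrome GTCTAGAC, the SMAD box CAGAC and the GC-rich SMAD box of BMP target genes, GGCGCC. The others are the core shared by sites of erythroid GATA factors and of the first zinc finger domain of EVI1, which reads AGATAA, and the promoter element that positions the polymerase, which reads TATAAA.
ID1: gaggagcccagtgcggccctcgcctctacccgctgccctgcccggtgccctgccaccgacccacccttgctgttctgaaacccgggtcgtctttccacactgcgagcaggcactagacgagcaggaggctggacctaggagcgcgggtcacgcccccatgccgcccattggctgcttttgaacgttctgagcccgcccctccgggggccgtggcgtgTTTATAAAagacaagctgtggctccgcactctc
ID2: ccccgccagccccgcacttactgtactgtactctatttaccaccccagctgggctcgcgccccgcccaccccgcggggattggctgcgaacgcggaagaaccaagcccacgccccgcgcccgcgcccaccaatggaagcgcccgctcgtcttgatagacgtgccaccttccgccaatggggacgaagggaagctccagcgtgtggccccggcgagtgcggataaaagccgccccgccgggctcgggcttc
ID3: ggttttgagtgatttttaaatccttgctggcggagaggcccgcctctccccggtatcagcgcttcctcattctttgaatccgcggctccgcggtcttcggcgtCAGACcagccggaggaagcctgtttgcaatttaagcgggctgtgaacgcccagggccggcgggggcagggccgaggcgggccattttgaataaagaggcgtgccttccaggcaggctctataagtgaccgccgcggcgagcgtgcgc
SMAD6: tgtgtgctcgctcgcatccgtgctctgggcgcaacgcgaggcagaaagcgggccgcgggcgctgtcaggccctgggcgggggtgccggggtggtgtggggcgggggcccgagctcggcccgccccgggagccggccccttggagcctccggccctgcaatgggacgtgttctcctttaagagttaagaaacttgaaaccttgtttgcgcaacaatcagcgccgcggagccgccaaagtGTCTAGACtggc
SMAD7: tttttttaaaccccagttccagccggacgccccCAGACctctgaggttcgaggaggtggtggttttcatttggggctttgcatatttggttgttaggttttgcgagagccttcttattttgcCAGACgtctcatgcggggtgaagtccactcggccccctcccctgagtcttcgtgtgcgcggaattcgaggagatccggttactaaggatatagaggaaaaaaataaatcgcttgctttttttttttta
The ID1 window held a TATA box, matched on both strands in overlapping positions from 33 to 26 bases before the start. No motif of the set matched in the ID2 window. The ID3 window held 1 CAGAC, 147 to 143 bases before the start. The palindrome stood in the SMAD6 window, 12 to 5 bases before the start, and the printed SMAD7 window held 2 copies of CAGAC. Another SMAD7 window, chr18:48949334-48949583, is not printed. It held a TATA box, 35 to 30 bases before its start, and a SMAD box on the other strand, 193 to 189 bases before it. The remaining SMAD7 window held no match. Over all 35116 windows of the same length, GTCTAGAC occurred in 0.182%, CAGAC in 38.0%, GGCGCC in 16.4%, AGATAA in 9.17% and TATAAA in 10.7%. These matches are descriptions of letters and not binding sites, and windows of 250 bases leave out more distant elements.

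**Figure D1:**
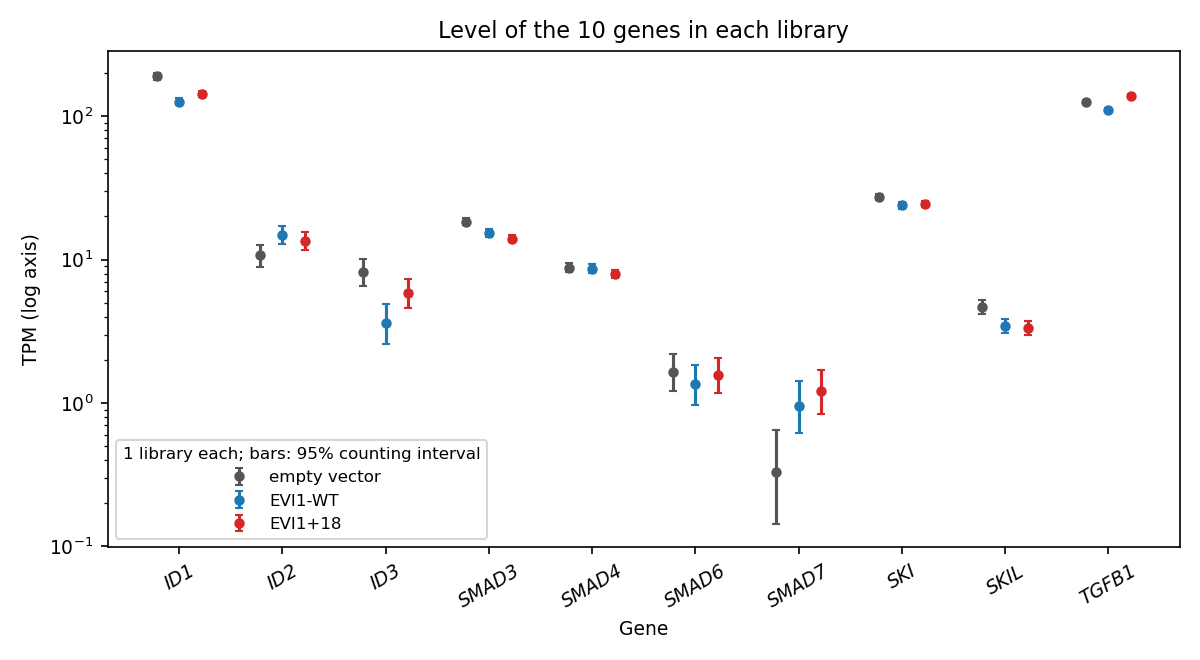
TPM (log axis) of each of the 10 genes in the empty vector, EVI1-WT and EVI1+18 libraries, 1 point per library; bars are the 95% interval of counting error. ID1 and TGFB1 lie at 110 to 190 TPM and SMAD7 at 0.33 to 1.21 TPM. The SMAD7 bar of the empty vector library, on 8 counts, ends below both EVI1 values but overlaps the EVI1-WT bar.

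TPM, which divides counts by transcript length, allows levels to be compared between genes. ID1 was highest of the 10 in each library, at 190 TPM with empty vector, 127 with EVI1-WT and 143 with EVI1+18. TGFB1 followed at 126, 110 and 139 TPM, and in the EVI1+18 library the counting intervals of ID1 and TGFB1 overlapped. SKI came next at 27.5, 23.9 and 24.4 TPM and SMAD3 at 18.4, 15.4 and 14.0 TPM. The order then ran ID2, SMAD4, ID3 and SKIL in all libraries. Neighbours in it were not separated by their intervals for ID2, SMAD4 and ID3 with empty vector, for SMAD3 and ID2 with either EVI1 form, and for ID3 and SKIL with EVI1-WT. SMAD6 and SMAD7 closed the order, below 2 TPM in each library, with intervals that overlapped with either EVI1 form.

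ID1 made up most of the ID transcripts. Of the summed TPM of ID1, ID2 and ID3, ID1 held 90.9% with empty vector, 87.3% with EVI1-WT and 88.1% with EVI1+18. ID2 held 5.13%, 10.3% and 8.35%, and ID3 3.94%, 2.49% and 3.58%. ID2 therefore had 1.30 times the TPM of ID3 with empty vector, 4.11 times with EVI1-WT and 2.33 times with EVI1+18. ID4, the remaining gene of the family, had no counts in any library, which allows up to 0.166, 0.164 and 0.145 CPM.

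Differences are given next as ratios of TMM-scaled counts, each with its exact 95% counting interval. ID1, an inhibitor of E proteins and the most abundant of the 3, had 1555 counts with empty vector, 1126 with EVI1-WT and 1466 with EVI1+18, or 86.2, 61.7 and 70.9 CPM. It was 1.40-fold lower with EVI1-WT (1.29 to 1.51) and 1.22-fold lower with EVI1+18 (1.13 to 1.31). Between the EVI1 libraries it was 1.15 times higher with EVI1+18 (1.06 to 1.24). The empty vector library was highest and EVI1-WT lowest. In bulk RNA, fewer cells with a transcript and less of it per cell cannot be told apart. Of all 10406 genes described, 5.18% were lower by at least as much with EVI1-WT, and 9.58% with EVI1+18.

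ID2, the family member best known for its roles in lymphoid and myeloid development, went the other way. It had 128, 190 and 200 counts (empty vector, EVI1-WT, EVI1+18), or 7.09, 10.4 and 9.67 CPM. The ratio to empty vector was 1.47 with EVI1-WT (1.17 to 1.85) and 1.36 with EVI1+18 (1.09 to 1.72). Both EVI1 libraries were above the control, and their own ratio of 0.929 had an interval that held 1 (0.758 to 1.14). Genes higher by at least as much made up 2.78% of all those described with EVI1-WT and 6.06% with EVI1+18. Such ratios are more common at the depth of ID2. Among the 1799 genes with a mean of 50 to under 200 counts, 6.84% were at least 1.5-fold higher with EVI1-WT and 11.1% with EVI1+18.

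ID3, which like ID1 responds early to BMP, had 87 counts with empty vector, 41 with EVI1-WT and 76 with EVI1+18, or 4.82, 2.25 and 3.67 CPM. The EVI1-WT library stood below the others. ID3 was 2.15-fold lower there than with empty vector (1.46 to 3.19), and 1.64 times higher in the EVI1+18 library than in the EVI1-WT library (1.10 to 2.45). With EVI1+18 its ratio to empty vector was 0.762, with an interval that held 1 (0.553 to 1.05). At this depth a difference between EVI1+18 and empty vector was not detectable for ID3. Among the 1799 genes with a mean of 50 to under 200 counts, like ID3, 7.17% were at least 2-fold lower with EVI1-WT. With EVI1+18 over EVI1-WT, 14.6% of that class were at least 1.5-fold higher.

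Added together, ID1, ID2 and ID3 had 1770, 1357 and 1742 counts. The sum was at 0.758 of empty vector with EVI1-WT (0.706 to 0.814) and at 0.859 with EVI1+18 (0.803 to 0.918). It follows ID1, which supplied most of those counts, so it does not show the opposite direction of ID2.

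**Figure D2:**
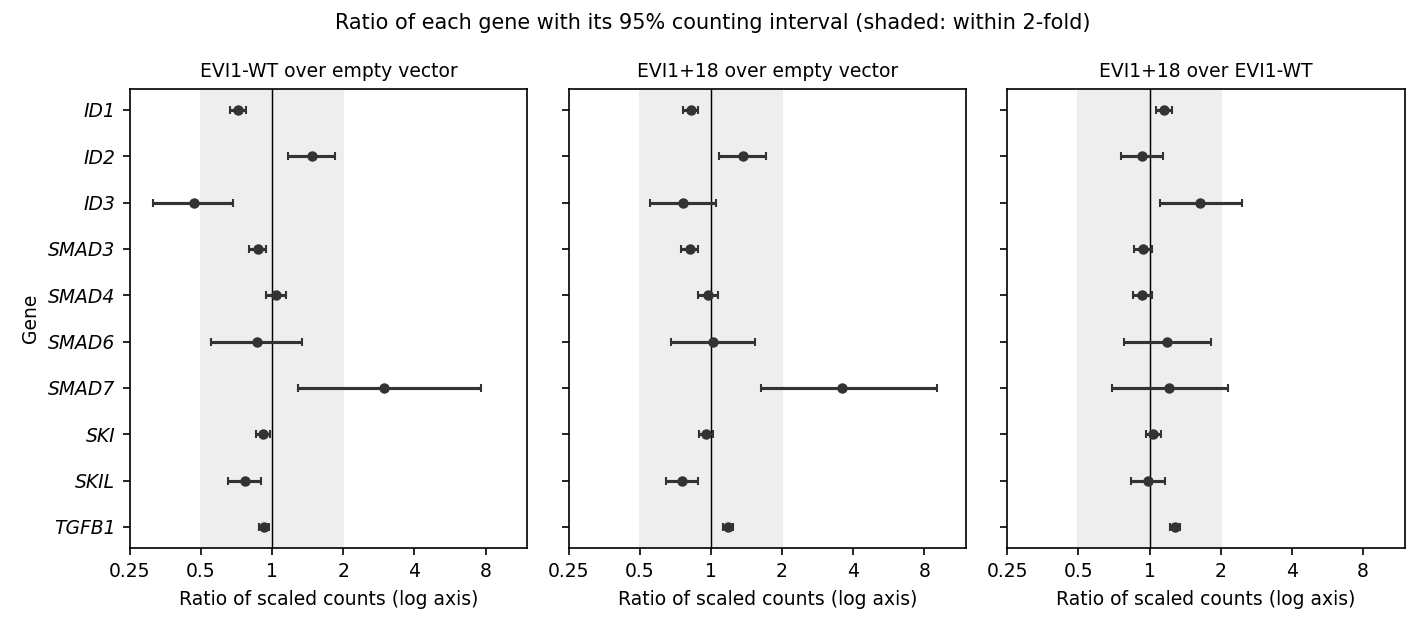
Ratio of TMM-scaled counts (log axis) for the 10 genes in each of the 3 comparisons, 1 library against 1 library; bars are exact 95% counting intervals and the shading spans 2-fold in either direction. ID3 (0.466 with EVI1-WT) and SMAD7 (2.97 and 3.60 over empty vector) are the points outside the shading.

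TGFB1 encodes the ligand of the TGF-beta branch and had the most counts of the 10 genes: 3177 with empty vector, 2976 with EVI1-WT and 4310 with EVI1+18, or 176, 163 and 208 CPM. The ratio to empty vector was 0.926 with EVI1-WT (0.881 to 0.974) and 1.18 with EVI1+18 (1.13 to 1.24). Between the EVI1 libraries it was 1.28 times higher with EVI1+18 (1.22 to 1.34). The EVI1+18 library was the highest. These differences are larger than counting error but small among genes: 15.3% of those described were higher by at least as much with EVI1+18 over empty vector, and 8.97% with EVI1+18 over EVI1-WT.

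SMAD3, the SMAD of the TGF-beta branch to which EVI1 binds, had 1141, 1002 and 1064 counts (empty vector, EVI1-WT, EVI1+18). The ratio was 0.868 with EVI1-WT (0.797 to 0.946) and 0.814 with EVI1+18 (0.748 to 0.885), so both EVI1 libraries lay below the control. Of all genes described, 16.8% were lower by at least as much with EVI1-WT and 8.62% with EVI1+18. SMAD4, the partner of all activated SMADs, had 816, 859 and 908 counts. Its ratios of 1.04 (0.944 to 1.15) and 0.971 (0.882 to 1.07) had intervals that held 1.

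Of the inhibitory SMADs, SMAD6 acts mainly on BMP receptors and SMAD7 on both branches. SMAD6 had 47, 41 and 55 counts (empty vector, EVI1-WT, EVI1+18), with ratios to empty vector of 0.862 (0.553 to 1.34) and 1.02 (0.679 to 1.54), so no difference was detectable. SMAD7 had 8, 24 and 33 counts. It was at 2.97 times the empty vector level with EVI1-WT (1.29 to 7.64) and at 3.60 times with EVI1+18 (1.63 to 9.02). The empty vector library was the low one, and the EVI1 libraries had a ratio of 1.21 to each other (0.696 to 2.15). At such counts large ratios are common. Among the 1537 genes with a mean of 10 to under 50 counts, 8.91% were at least 2-fold higher with EVI1-WT and 12.4% with EVI1+18.

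SKI, a corepressor that binds SMAD complexes on DNA, had 1632, 1514 and 1781 counts. It was at 0.917 of empty vector with EVI1-WT (0.855 to 0.984) and at 0.952 with EVI1+18 (0.890 to 1.02). SKIL, its paralogue and a gene that TGF-beta induces, had 353, 274 and 306 counts. It was 1.30-fold lower with EVI1-WT (1.11 to 1.53) and 1.32-fold lower with EVI1+18 (1.13 to 1.55), so the control library was highest. For SKIL, 7.52% of all genes described were lower by at least as much with EVI1-WT and 4.80% with EVI1+18. The EVI1 libraries differed by less than counting error for both genes, with ratios of 1.04 for SKI (0.969 to 1.11) and 0.986 for SKIL (0.835 to 1.16).

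The counts of genes past a fixed fold set these values against all genes. With EVI1-WT over empty vector, 1 of the 8 genes that average 50 counts or more was at least 2-fold different, ID3, beside 2.4% of all 10406 genes. No other passed 1.5-fold, which 6.32% of genes did. The counting interval left out 1 for 7 of the 8, beside 44.9% of genes. It lay below 1 for 6 of them, beside 20.6%, and above 1 for 1 of them, beside 24.3%. With EVI1+18 over empty vector, 0 of the 8 passed 2-fold, beside 1.85%, and 0 passed 1.5-fold, beside 5.53%. The interval left out 1 for 5, beside 47.7%. With EVI1+18 over EVI1-WT, ID3 was the 1 gene of the 8 past 1.5-fold, beside 4.42%. Of genes averaging 50 to under 200 counts, like ID3, 17.9% passed it. None of the 8 reached 2-fold, beside 1.16%, and the interval left out 1 for 3, beside 48.5%. The median log2 ratio of the 8 was -0.16, -0.18 and 0.02 in these comparisons, and that of all genes 0.01, 0.00 and -0.01.

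**Figure D3:**
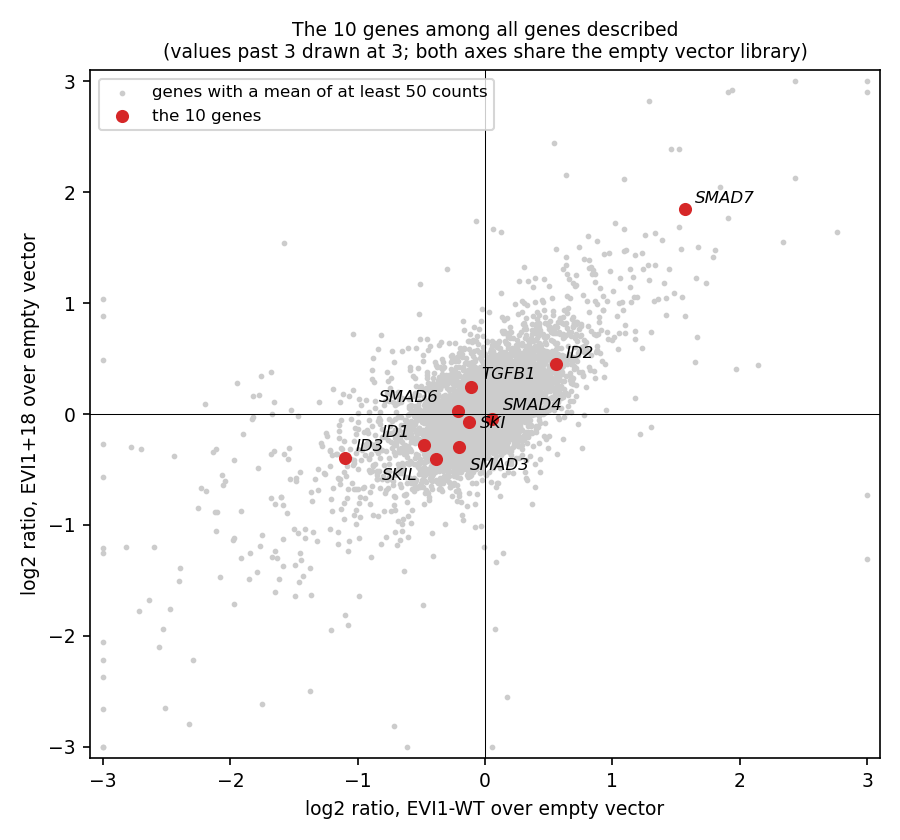
log2 ratio to empty vector with EVI1-WT (horizontal) and with EVI1+18 (vertical), for all 10406 genes described (grey, values past 3 drawn at 3) and the 10 genes (red). Both axes share the empty vector library; SMAD7 and ID2 lie upper right, ID3, SKIL, ID1 and SMAD3 lower left, and TGFB1 upper left.

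By distance in the pair of log2 ratios to empty vector, over the 3 libraries, the genes most like ID1 were MAGEA2B, ACACA and TRIM3. ACACA, the first enzyme of fatty acid synthesis, had 7222, 5221 and 6785 counts and lay 0.01 from ID1. MAGEA2B has a near-identical copy and is uncertain. ID2 lay nearest to CCDC136, GCLC and SYNGR1, of which GCLC, a glutathione synthesis enzyme, had 348, 517 and 552 counts at a distance of 0.02. For ID3 the nearest were GOLGA2P5, MVK and PRKCH, at distances of 0.05 to 0.07, with the mevalonate kinase gene MVK at 656, 297 and 585 counts. GOLGA2P5 resembles its parent gene and is uncertain too. With 3 libraries such likeness is weak: 65 of 9861 genes lay within 0.1 of ID1, 49 of ID2 and 10 of ID3.

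Around the 10 genes, the rest of the pathway was described by 8 lists, which share some members. Of 18 receptor genes, 9 were above the count minimum, and 0 of the 9 passed 1.5-fold in any comparison, beside 6.32%, 5.53% and 4.42% of all genes. Their median log2 ratio was -0.06 with EVI1+18 over empty vector and -0.08 over EVI1-WT, and nearer to 0 with EVI1-WT over empty vector, at -0.0020. The type I receptor TGFBR1 was at 33.6, 30.5 and 26.8 TPM (empty vector, EVI1-WT, EVI1+18), whereas the type II receptor TGFBR2, which binds TGF-beta itself, had 2, 1 and 1 counts, or at most 0.04 TPM. The co-receptor TGFBR3 was at 13.3, 12.5 and 11.6 TPM. ACVR1, a type I receptor of the BMP branch, had 310, 442 and 525 counts, at 1.41 times empty vector with EVI1-WT (1.22 to 1.63) and 1.48 times with EVI1+18 (1.28 to 1.71).

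Among the SMADs of the BMP branch nearly all transcripts were of 1 gene. SMAD5 was at 13.6, 13.9 and 12.2 TPM, 99.3% to 99.8% of the summed TPM of SMAD1, SMAD5 and SMAD9. SMAD1 had 1, 1 and 3 counts and SMAD9 1, 0 and 0. SMAD2 was at 7.92, 8.23 and 7.01 TPM, below SMAD3 in each library. Of the 8 SMAD genes, 4 were above the count minimum and 0 of these passed 1.5-fold, with median log2 ratios of 0.09 and -0.06 over empty vector and -0.13 between the EVI1 libraries. Of 15 corepressor and ubiquitin ligase genes above the count minimum, 0 passed 1.5-fold in each comparison, and their medians were -0.07, -0.05 and -0.02. For lists of this length a count of 0 is near the share over all genes, so it says nothing particular to them. The most abundant were the ligase gene STUB1, at 124 to 138 TPM, and the deubiquitinase gene USP15, at 62.9 to 77.8 TPM.

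Of 30 ligand genes, 6 were above the count minimum and 12 had no counts in any library, BMP2, BMP4, BMP6 and BMP7 among them. The 6 had a median log2 ratio of -0.22 with EVI1-WT and 0.17 with EVI1+18 over empty vector, and 0.46 with EVI1+18 over EVI1-WT. With no count minimum the median with EVI1+18 over empty vector was -0.12, so its direction depends on genes of few counts, and that with EVI1+18 over EVI1-WT was 0.35. GDF15, a stress-induced distant member, had 559, 258 and 619 counts. It was 2.19-fold lower with EVI1-WT than with empty vector (1.89 to 2.55), and the EVI1+18 library exceeded EVI1-WT by a ratio of 2.12 (1.83 to 2.46). INHBE, an activin subunit, had 60, 48 and 97 counts with a ratio of 1.78 between EVI1+18 and EVI1-WT (1.25 to 2.58).

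Of the genes for proteins that hold TGF-beta latent, LTBP1, LTBP3 and LTBP4 were highest in the EVI1+18 library, which was also the one with most TGFB1, and NRROS was highest with empty vector. LTBP1 had 1281, 1425 and 2136 counts (empty vector, EVI1-WT, EVI1+18), LTBP3 202, 191 and 332, and LTBP4 865, 700 and 1328. Their ratios of EVI1+18 over empty vector were 1.45 (1.36 to 1.56), 1.43 (1.20 to 1.72) and 1.34 (1.23 to 1.46). NRROS, a membrane anchor of latent TGF-beta, had 482, 369 and 454 counts and was 1.32-fold lower with EVI1-WT (1.15 to 1.52) and 1.22-fold lower with EVI1+18 (1.07 to 1.39) than with empty vector. Over EVI1-WT, LTBP3 was at 1.53 (1.28 to 1.84) and LTBP4 at 1.67 (1.53 to 1.84). FSTL3, which binds activins, had 146, 113 and 227 counts, at 1.77 times the EVI1-WT level in the EVI1+18 library (1.41 to 2.24). FURIN, the protease that processes the TGF-beta precursor, had 3265, 3686 and 4495 counts, and was at 1.20 of empty vector with EVI1+18 (1.15 to 1.26). In the list of extracellular regulators the median of 9 genes was 0.42 with EVI1+18 over empty vector, with 0 past 1.5-fold, beside 5.53% of all genes. CRIM1, a BMP antagonist with 36, 161 and 56 counts, was the 1 gene of the 9 past 1.5-fold with EVI1-WT, beside 6.32%, at 4.42 times empty vector (3.06 to 6.53). With EVI1+18 over EVI1-WT, LTBP3, LTBP4 and FSTL3 were the 3 genes of the 9 at least 1.5-fold higher, beside 3.57% of all genes, and CRIM1 the 1 lower, beside 0.846%. FSTL3 and CRIM1 average 50 to under 200 counts. In that class 14.6% of genes were at least 1.5-fold higher in this comparison and 3.34% lower.

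Response genes of the BMP branch had a median log2 ratio of -0.50 with EVI1-WT and -0.34 with EVI1+18 over empty vector, over 8 genes that include ID1, ID2 and ID3. Of these 8, 7 were below a ratio of 1 in each, ID2 being the exception, beside 47.4% and 50.1% of all genes. The counting interval lay below 1 for 5 with EVI1-WT, beside 20.6%, and for 3 with EVI1+18, beside 23.9%. It held 1 for 2 of the 8 with EVI1-WT and for 4 with EVI1+18. HEY1, a repressor gene shared with the Notch pathway, had 134, 77 and 68 counts and was 1.76-fold lower with EVI1-WT (1.32 to 2.36) and 2.26-fold lower with EVI1+18 (1.67 to 3.07). Among genes averaging 50 to under 200 counts, like HEY1, 14.1% were at least 1.5-fold lower with EVI1-WT. With EVI1+18, 3.78% of that class were at least 2-fold lower. GATA2, the most abundant of the list beside ID1, was at 122, 80.4 and 83.5 TPM.

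TGF-beta response genes had medians of -0.24 and 0.12 over empty vector and 0.21 with EVI1+18 over EVI1-WT, over 10 genes. With TPM the median with EVI1+18 over empty vector was 0.01. With EVI1+18 over EVI1-WT, 3 of the 10 were at least 1.5-fold higher, beside 3.57% of all genes, and 0 lower, beside 0.846%. The 3 were CDKN1A (99, 21 and 63 counts), BHLHE40 (1304, 961 and 2394 counts) and LTBP3. CDKN1A averages 50 to under 200 counts, a class in which 14.6% of genes were at least 1.5-fold higher there. In that class 14.1% were at least 1.5-fold lower with EVI1-WT over empty vector, and 8.45% with EVI1+18. Over empty vector 1 of the 10 passed 1.5-fold with EVI1-WT, beside 6.32%: CDKN1A was 4.77-fold lower (2.96 to 8.04). With EVI1+18 it was 1.80-fold lower (1.30 to 2.51) and BHLHE40 1.60 times higher (1.497 to 1.715), the 2 genes of the 10 past 1.5-fold there, beside 5.53%. JUNB had 994, 809 and 1282 counts and MYC 7329, 6123 and 7737, each lowest in the EVI1-WT library. The list was not split into induced and repressed genes, so its median gives no direction of the pathway. Of other known targets, PMEPA1, CTGF and CDKN2B were at 0 in all libraries. Whether these genes are intact in this cell line was not tested, so counts of 0 give no state of the pathway.

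The E protein genes, whose products ID proteins sequester, differed in level. TCF3, the gene of the E proteins E12 and E47, was at 93.9, 91.7 and 90.1 TPM, with ratios to empty vector of 1.03 for both EVI1 forms. TCF12 was at 40.2, 36.2 and 34.4 TPM, and TCF4 at 6.82, 8.96 and 6.77 TPM. In the same list are bHLH factors that pair with E proteins. Of these LYL1 was at 114, 87.2 and 105 TPM and TAL1, a bHLH factor of erythroid cells, at 62.7, 78.5 and 69.3 TPM. The list has 12 genes, ID4 included, of which 3 were at 0 in all libraries and 5 were above the count minimum. Of the 5, 0 passed 1.5-fold in any comparison, beside 4.42% to 6.32% of all genes, and the median log2 ratio was 0.04 with either EVI1 form over empty vector (below 0 with TPM) and -0.06 between them. ID1 exceeded each of the 5 in TPM in each library.

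**Figure D4:**
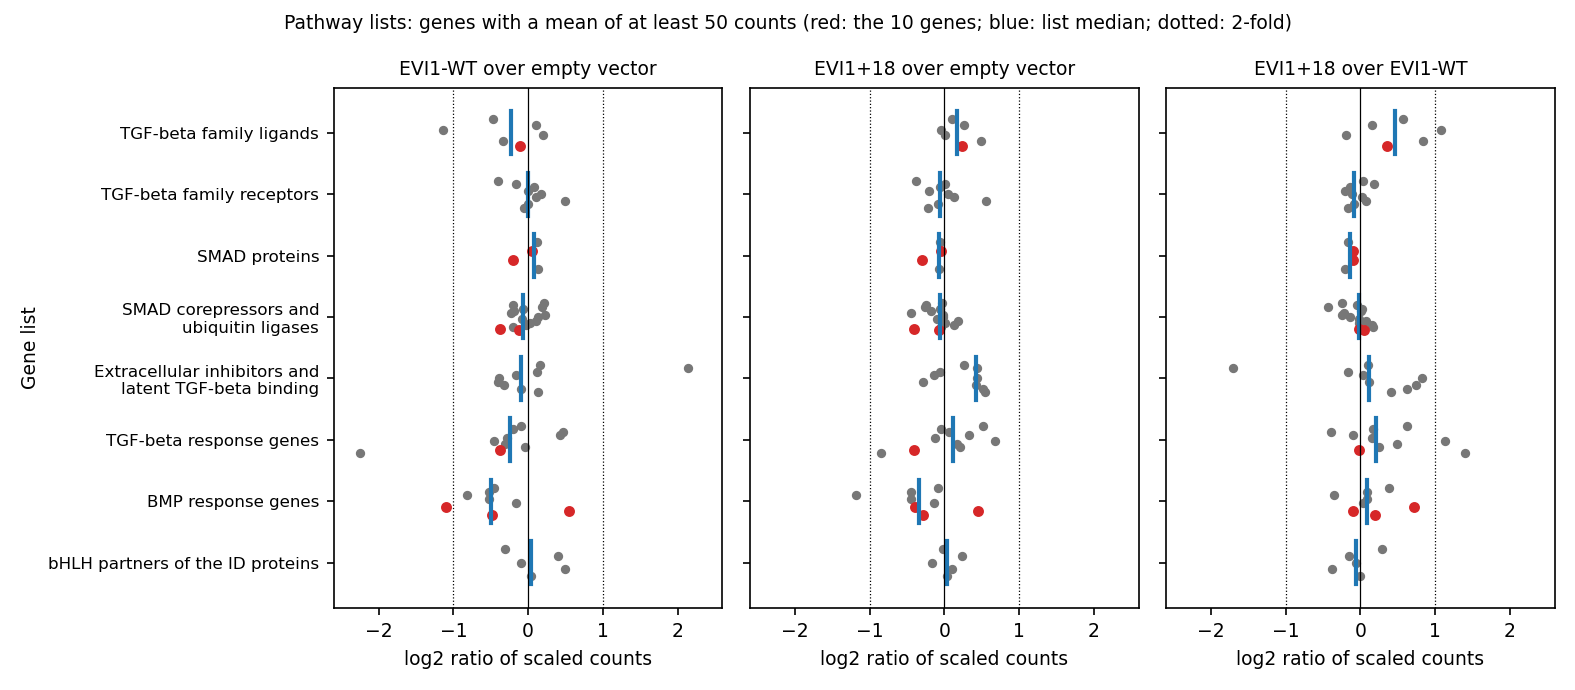
log2 ratio of scaled counts for members of the 8 lists above the count minimum, in the 3 comparisons of 1 library against 1 library. Red points are among the 10 genes, blue lines are list medians and dotted lines mark 2-fold; receptors, SMAD genes and corepressors cluster near 0, while the BMP response list has its median at -0.50 and -0.34 over empty vector.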

How the data were processed

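Per the file headers, each deposited table holds an expected count, TPM, FPKM and mean transcript length in bases for genes built from RefSeq transcripts. The expected counts are the authors' estimates, of which 3.02% to 3.09% were off a whole number by over 0.001. The TPM values that the authors deposited are corrected for effective length and sum to the same total. No comparison uses the deposited FPKM values. The submitters' processing notes name hg19 and bcl2fastq. Not given in the sources used here are the aligner, counter, annotation release and strand setting, so reads of near-identical or overlapping genes are uncertain. Promoter windows are RefSeq's on GRCh38.p14.

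Expected counts were rounded and scaled by library total and TMM factors of 1.01, 0.990 and 0.996 (edgeR 4.0.16, R 4.3.3). CPM is the count relative to that scaled total. Ratios have exact 95% intervals (Clopper-Pearson, conditional on the sum of both counts; scipy 1.17.1, Python 3.11.15), and levels have exact Poisson intervals. A count of 0 allows up to 3 counts, and no ratio was formed of a count of 0 and one of 3 or fewer. Without molecular identifiers reads are not independent molecules, so intervals and floors cover counting error only. The script was tested on simulated data.

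The 10 genes and the 8 lists were chosen with earlier results of these data known. Named are the 10 genes, MECOM, and from each list the 2 genes of highest TPM and up to 4 past 1.5-fold per comparison, with a mean of at least 50 counts. For ID1, ID2 and ID3 the 3 genes nearest in the pair of log2 ratios are named, without uncharacterised, small RNA, antisense and read-through symbols. The other list members named (among them TGFBR2, TGFBR3, SMAD1, SMAD2, SMAD9, NRROS, TCF4, TCF12, TAL1 and genes at 0) and the count classes under 200 were chosen after values were seen. One list member is not reported here. Alternatives were library totals, DESeq2 1.42.0 size factors, TPM, unrounded counts and 2 other filters.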

Additional observations from a re-analysis of the deposited data

How the results depend on the processing

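Library totals, DESeq2 size factors, TPM and unrounded counts were each put in place of TMM-scaled counts. Of 132 ratios of the 10 genes and MECOM so recomputed, 128 stayed within the counting interval of the reported value, 4 moved out of it, and the largest shift was 1.09-fold. No ratio whose interval left out 1 changed direction; of the others, TPM put SMAD4 with EVI1-WT at 0.984 and SMAD6 with EVI1+18 at 0.952 of empty vector. The 4 arose with TPM: TGFB1 at 0.876 with EVI1-WT and 1.10 with EVI1+18, ID1 at 0.755 and SKI at 0.885 with EVI1+18, all over empty vector. TPM shifts the median log2 ratio of all genes to -0.10 for EVI1+18 over empty vector, and there genes past 2-fold were 83 higher and 105 lower, against 105 and 87 with TMM. List medians moved there too, to 0.01 for TGF-beta response genes, 0.06 for ligands, 0.32 for extracellular regulators and -0.45 for BMP response genes. Those of SMAD genes and of corepressor and ubiquitin ligase genes moved to -0.17 and -0.18. With a filter at a mean of 10 counts, genes at least 2-fold different numbered 691 (EVI1-WT over empty vector), 577 (EVI1+18 over empty vector) and 455 (EVI1+18 over EVI1-WT). Without a filter they numbered 1502, 1438 and 1213. Both filters admit SMAD7, so that 2 of the 10 genes passed 1.5-fold with EVI1-WT and 1 with EVI1+18 over empty vector. No paired analysis was possible because each construct has 1 library. Depth limits ID3, SMAD6 and SMAD7 most, at 8 to 87 counts per library.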

Other observations

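The deposited mean transcript length, which averages over the transcripts of a gene by their estimated share, gave a second readout for the 5 of the 10 genes with several RefSeq transcripts. For ID1, with 2 transcripts, it was 1018.74 bases with empty vector, 1031.06 with EVI1-WT and 1029.44 with EVI1+18. SMAD3 was at 5952.77, 5840.12 and 5916.26 bases, and SKIL at 7194.5, 7091.86 and 7132.19. SMAD7 was at 2495.25, 2418.9 and 2292 bases, on 8, 24 and 33 counts. SMAD6 stayed at 2878 bases throughout. Among all described genes with several transcripts, 18.3% differed in length by at least as much as ID1, and 12.3% by at least as much as SMAD3, with EVI1-WT over empty vector.

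Some pathway genes below a mean of 50 counts had uneven values. They were singled out after their values were seen. LRRC32, which anchors latent TGF-beta at the cell surface, had 2, 9 and 17 counts (empty vector, EVI1-WT, EVI1+18). CHRD, a BMP antagonist, had 23, 15 and 5 counts. DLX2, a homeobox gene of the BMP response list, had 58, 20 and 41 counts, and RUNX2, the osteoblast factor, 18, 2 and 15. The mean transcript length of RUNX2 also differed, at 2186.02, 5235 and 5553 bases. CHRD, DLX2 and RUNX2 average 10 to under 50 counts, and LRRC32 fewer. In that class 28.7% of genes were at least 2-fold different with EVI1-WT over empty vector, and 25% with EVI1+18.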
